A study of Mus musculus with 6 samples.

Results

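Messenger RNAs of 36 lysosomal genes were followed in the arcuate hypothalamus of mice that lack Dicer, the enzyme that cuts microRNA precursors, in cells that express Pomc. The genes were taken by name as a set of lysosomal hydrolases, their helper proteins, lysosomal membrane proteins and Tfeb, and every probe set that the array annotation assigns to one of these genes alone was used. This gave 85 of 45037 probe sets, for 36 of 18193 genes. The samples were 3 control mice, labelled Ctrl, and 3 POMCDicerKO mice, all aged 2 weeks and of mixed strain (C57Bl/6J, FVB/N and 129), with 1 Affymetrix Mouse Genome 430 2.0 array each. The titles describe each sample as a mouse. Whether tissue was pooled, what drove the deletion and which alleles the controls carried are not stated in the labels. Values are log2 expression, on which a difference of 1 is a doubling. For each gene the probe set with the highest mean over the 6 arrays stands for the gene unless another is named, and differences are POMCDicerKO minus control.

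Lysosomes break down macromolecules that reach them by endocytosis and autophagy. Acid hydrolases made in the endoplasmic reticulum are carried there mostly by mannose 6-phosphate receptors, a proton pump keeps the lumen acid, and heavily glycosylated membrane proteins line the limiting membrane. The transcription factor TFEB, held in the cytoplasm by mTORC1 when nutrients are plentiful, binds an element built on the letters CACGTG near the start sites of many of these genes. Neurons depend on the pathway strongly, and inherited loss of single hydrolases causes storage diseases of the brain. Microglia are rich in many of the same transcripts.

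The TFEB element is the sequence feature for which this gene set is best known, so CACGTG was searched in RefSeq promoter windows of 300 bases, 250 before and 50 after each start. The motif is its own reverse complement, so both strands are covered. Windows were found for 32 members and not for Ctsb, Ctsh, Asah1 and Aga. CACGTG occurred in 11 of the 32 (34.4%), against 1479 of 14452 genes on the array (10.2%) and 7.15% of all 32851 windows. The longer TCACGTGA, which contains it and is also its own reverse complement, occurred in 5 of the 32 (15.6%), against 1.63% of the array's genes and 0.974% of all windows. A match is a string of letters, not a bound site. The stretches below are shown because they belong to the 4 genes whose arrays did not overlap between the groups (Naglu, Glb1, Gaa and Ctsd) and, for comparison, to the membrane proteins Lamp1 and Mcoln1, whose values were nearly equal. Each is written 5′ to 3′ on the gene's strand, lies before the start site, and has CACGTG in capitals. Coordinates are of build GRCm38.p6: Naglu chr11:101069994-101070053 (plus strand), Glb1 chr9:114401003-114401062 (plus), Gaa chr11:119267796-119267855 (plus), Ctsd chr7:142387893-142387952 (minus), Lamp1 chr8:13159098-13159160 (plus) and Mcoln1 chr8:3500447-3500506 (plus).
Naglu: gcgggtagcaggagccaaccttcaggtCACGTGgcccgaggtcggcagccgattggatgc
Glb1: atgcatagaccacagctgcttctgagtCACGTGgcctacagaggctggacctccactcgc
Gaa: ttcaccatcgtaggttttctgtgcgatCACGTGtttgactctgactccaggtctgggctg
Ctsd: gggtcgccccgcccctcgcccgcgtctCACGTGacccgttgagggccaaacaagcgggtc
Lamp1: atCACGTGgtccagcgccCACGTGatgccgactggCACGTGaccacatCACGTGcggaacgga
Mcoln1: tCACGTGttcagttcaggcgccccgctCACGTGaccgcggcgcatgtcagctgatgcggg
The Naglu and Glb1 motifs begin 73 and 48 bases before the start. Those of Gaa and Ctsd shown here begin 140 and 98 bases before it, and Ctsd has a further one at 245. The other members with the motif were Ctsa, Gla, Sgsh, Cln3 and Arsa.

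The arrays were alike, with Pearson r across probe sets from 0.994 to 0.997 between any pair and medians between 6.02 and 6.05. Dicer1 did not differ detectably. Its brighter probe set, 1460571_at, read 9.22, 9.18 and 9.24 in controls and 9.18, 9.19 and 9.33 in POMCDicerKO, and 1427941_at gave 0.090 with a standard error of 0.096 (limma adjusted p = 1 for both). Cells that express Pomc make up a minor share of such a dissection, so Dicer1 levels in whole tissue are no check of the genotypes. All 7 arcuate neuron markers measured, Pomc, Npy, Ghrh, Tac2, Th, Tbx3 and Isl1, had means of at least 6. Controls 1 and 2 stood apart from the other 4 arrays in meningeal transcripts, as given below. In a bulk sample fewer cells of a type and less RNA per cell cannot be told apart.

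Lysosomal transcripts of the whole tissue were close to control levels in POMCDicerKO. By limma with Benjamini-Hochberg adjustment over all probe sets, 0 of the 85 member probe sets passed 0.05, as did 0 (0%) on the whole array, and the adjusted p = 1 for every member. At an unadjusted p under 0.05 there were 3 of 85 (3.53%), against 2.44% of all probe sets, a share near the background. The arrays of the groups did not overlap at 6 of 85 (7.06%), against 6.36%. Of these, 5 had POMCDicerKO below control (5.88%, against 3.22%) and 1 above (1.18%, against 3.14%). With 1 probe set per gene, 2 of 36 (5.56%) had an unadjusted p under 0.05, against 2.41% of all genes, and 4 of 36 (11.1%) were apart, against 6.44%. The median difference over the 36 genes was -0.036, against -0.0099 over all genes, and their middle range ran from -0.073 to 0.011, against -0.060 to 0.041. Means were below control for 25 of 36 genes, where 55.1% of all genes were. Control 2 bore on that count: without it, 20 of 36 were below and the median was -0.016. Averaging over each gene's probe sets, dim ones included, 18 of 36 were below and the median was -0.0011. Averaging only those with a mean of at least 6, 23 of 35 were below and the median was -0.026. With single arrays left out, the difference changed sign at least once for 18 of the 36 genes. Naglu, Glb1, Gaa and Ctsd were among the other 18, which was fixed in advance. Where the groups do not overlap, leaving out 1 array cannot turn the sign.

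The intervals bound, 1 gene at a time, how far the tissue average could have differed at the brightest probe set. They do not bound a difference within the cells that express Pomc, a minor share of the dissection. For 35 of the 36 genes the 95% interval lay within a 1.5-fold difference in either direction, the exception being Ctsh. This is not particular to the members. It held for 19 of 20 other lysosomal hydrolases and for every gene of the remaining pathway lists described below. It held for 2 of 10 myelin and 1 of 10 meningeal markers. Over all genes, only 0.27% had a difference larger than 1.5-fold. The spread between arrays of one group had a median SD of 0.074 over the members, against 0.099 over all genes. It was smallest for Smpd1, acid sphingomyelinase, at 0.021, and largest for Ctsh, at 0.37.

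**Figure D1:**
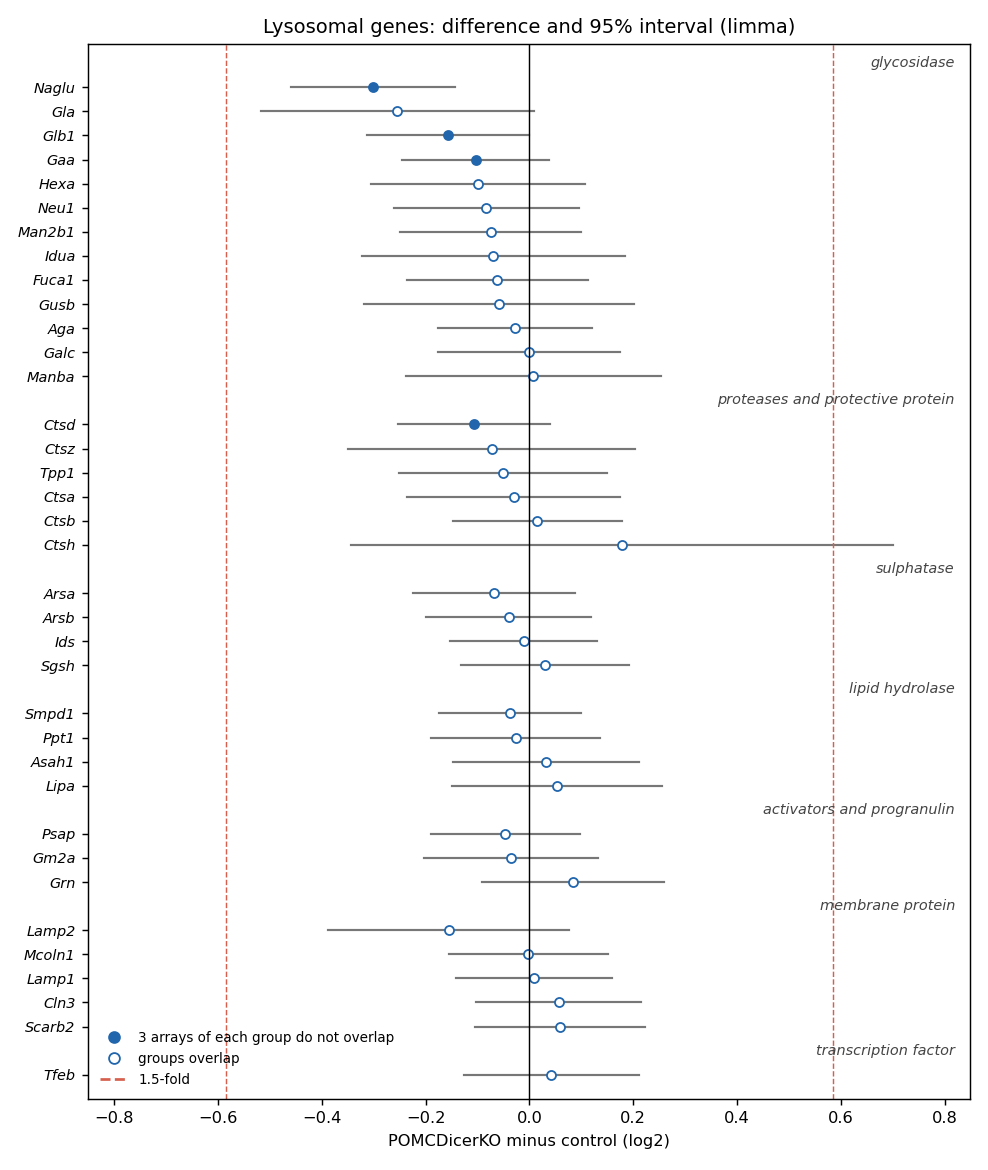
Difference between POMCDicerKO and control for the 36 lysosomal genes by role (points, log2, brightest probe set) with limma's 95% interval (lines); the dashed lines mark 1.5-fold and filled points are genes whose 3 arrays per group did not overlap. The intervals lie within the dashed lines for 35 genes, and the 4 filled points, Naglu, Glb1, Gaa and Ctsd, are all below 0.

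Among the glycosidases, which strip sugars from glycoproteins, glycolipids and glycosaminoglycans, and counted with the glycoasparaginase Aga, 12 of 13 had means below control, with a median of -0.074. None passed limma's adjusted threshold, and 2 of 13 had an unadjusted p under 0.05, against 2.41% of all genes. The arrays' medians over the 13 genes, relative to the control mean, were -0.080, 0.026 and 0.010 in controls and -0.066, -0.11 and -0.078 in POMCDicerKO, so control 1 lay among the POMCDicerKO arrays. Without control 1 the count was 13 of 13 and the median -0.11. Without control 2 the count was 9 of 13 and the median -0.041, and averaging over each gene's probe sets they were 9 of 13 and -0.027. Averaging only probe sets with a mean of at least 6, they were 11 of 12 and -0.076.

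Naglu, which removes N-acetylglucosamine from heparan sulphate and is deficient in a form of Sanfilippo syndrome, differed most among the members. Probe set 1417706_at, its only one, read 6.22, 6.39 and 6.30 in controls and 5.99, 6.03 and 5.98 in POMCDicerKO. Every POMCDicerKO array was below every control array. The means were 6.30 ± 0.081 and 6.00 ± 0.029 (SD, n = 3 each), a difference of -0.30 (1.23-fold). Its standard error was 0.068 and its 95% interval ran from -0.46 to -0.14. The unadjusted p was 0.00241, limma's adjusted p = 1, and the two-sided exact permutation p was 0.1, the smallest that 3 against 3 arrays can give. With single arrays left out the difference stayed between -0.34 and -0.26. The level is near the array median, in a range where signal over background is small.

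Glb1, the lysosomal beta-galactosidase, read 7.90, 7.87 and 7.92 in controls and 7.65, 7.75 and 7.81 in POMCDicerKO. The groups did not overlap, and POMCDicerKO 3 lay nearest to the controls. The difference was -0.16 with a standard error of 0.067 and a 95% interval from -0.31 to -0.00058 (unadjusted p = 0.0493, limma adjusted p = 1, exact permutation p = 0.1).

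Gaa, the acid glucosidase that degrades lysosomal glycogen, was apart in both of its probe sets. At 1436849_x_at controls read 12.20, 12.22 and 12.22 and POMCDicerKO 12.07, 12.11 and 12.16, a difference of -0.10 with a standard error of 0.061. At 1419428_a_at controls read 11.78, 11.95 and 11.91 and POMCDicerKO 11.66, 11.72 and 11.78, a difference of -0.16 with a standard error of 0.073. At the second, control 1 and POMCDicerKO 3 differed by less than the rounding shown. Neither passed limma's threshold (adjusted p = 1 for both). The probe sets were read on the same arrays and are not separate evidence.

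Gla, alpha-galactosidase A, had the second largest difference among the glycosidases, but its groups overlapped. It read 6.14, 6.31 and 6.40 in controls and 6.10, 6.18 and 5.81 in POMCDicerKO, where array 3 alone was far below. The difference was -0.25 with a standard error of 0.11 (limma adjusted p = 1), or -0.15 without POMCDicerKO 3. For Hexa, the alpha subunit of beta-hexosaminidase, it was -0.099, for the sialidase Neu1 -0.083, for the mannosidase Man2b1 -0.074 and for the iduronidase Idua -0.069. The fucosidase Fuca1 was at -0.061, the glucuronidase Gusb at -0.058 and Aga at -0.027. Manba, the beta-mannosidase, was at 0.0078. Galc, which degrades the myelin lipid galactosylceramide, was at -0.00077 with a mean of 5.31 in both groups, the only member represented by a probe set below a mean of 6. Among probe sets with a mean of at least 6, others of Fuca1 and Man2b1 were on the other side of 0 from these. So was a dim one each of Neu1, Galc, Idua, Gla and Fuca1, at 0.17, 0.081, 0.048, 0.024 and 0.0062. The remaining dim probe sets of Neu1, Galc and Gla were at -0.047, -0.065 and -0.026.

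**Figure D2:**
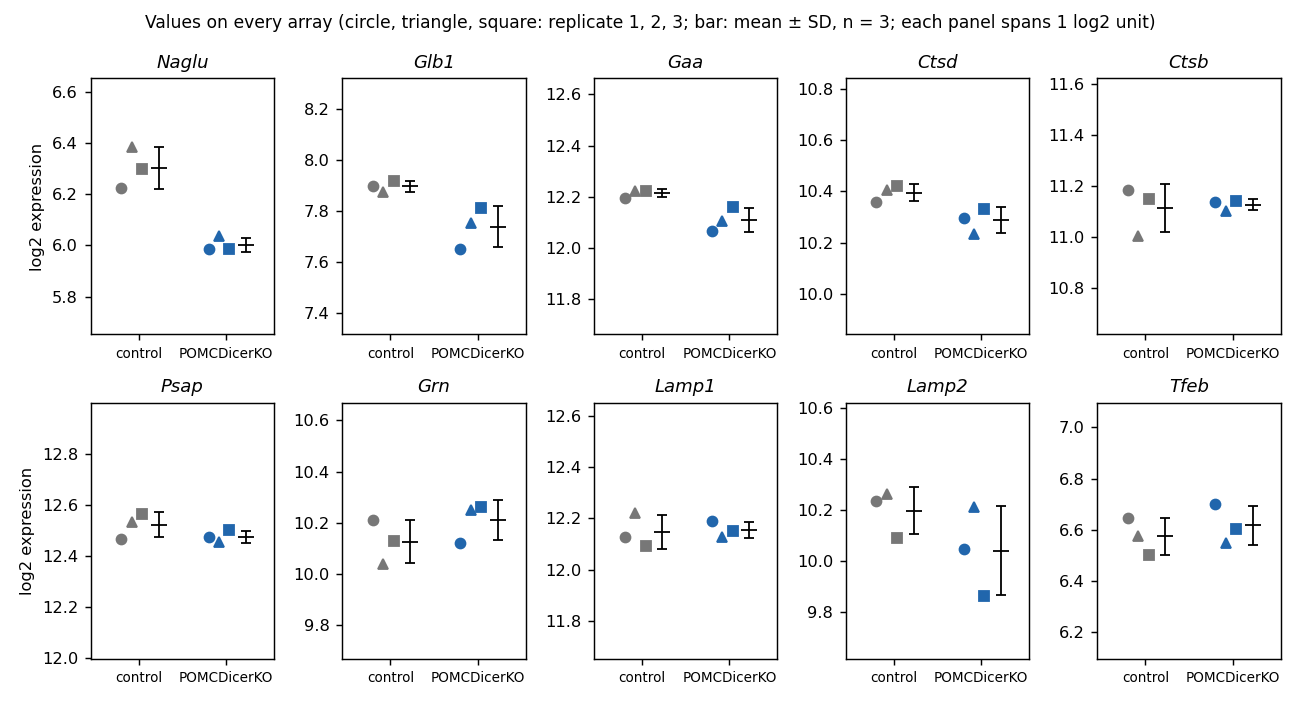
Log2 expression on each array for 10 lysosomal genes (grey control, blue POMCDicerKO; symbols are replicates 1, 2 and 3; bars are mean ± SD, n = 3), with the same span of 1 log2 unit in every panel. Naglu, Glb1, Gaa and Ctsd show no overlap between the groups, whereas Ctsb, Psap, Grn, Lamp1, Lamp2 and Tfeb overlap.

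The proteases had a median difference of -0.040, with 4 of 6 genes below control and 0 past limma's threshold or an unadjusted p of 0.05. Ctsd, the main aspartic protease of the lysosome, read 10.36, 10.40 and 10.42 in controls and 10.30, 10.23 and 10.33 in POMCDicerKO. Its groups did not overlap, but the highest POMCDicerKO array was close to the lowest control. The difference was -0.11 with a standard error of 0.063 (unadjusted p = 0.129, limma adjusted p = 1, exact permutation p = 0.1). Ctsb, an abundant cysteine protease, read 11.18, 11.01 and 11.15 in controls and 11.14, 11.10 and 11.14 in POMCDicerKO, with control 2 the lowest. Its difference of 0.015 with a standard error of 0.070 turned to -0.038 without control 2. Its 3 other probe sets with a mean of at least 6 were between 0.020 and 0.10. The protective protein Ctsa, which stabilises Glb1 and Neu1 in a complex, was at -0.030, the tripeptidyl peptidase Tpp1 at -0.051 and the carboxypeptidase Ctsz at -0.073.

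Ctsh, an aminopeptidase, varied more than any other member. It read 8.15, 8.50 and 7.59 in controls and 8.15, 8.55 and 8.08 in POMCDicerKO, with control 3 alone below the rest. The difference was 0.18 with a standard error of 0.22, and its interval ran from -0.34 to 0.70 (limma adjusted p = 1). Its other probe set, 1443814_x_at, read 6.42 on control 3, again the lowest array, and gave 0.13. Control 3 set the sign of the Ctsh difference, which was -0.066 without it and 0.38 without control 2. Control 3 also had the lowest medians of the 6 arrays for microglia and endothelial markers (-0.12 and -0.11 relative to the control mean). For meningeal markers it was below the other controls (-0.84, against 0.33 and 0.48). The POMCDicerKO arrays were at -0.41, -0.65 and -1.35 for meningeal markers. The part of these cell types in the Ctsh values was not tested.

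Sulphatases, which take sulphate groups off glycosaminoglycans and sulphatide, had a median of -0.025, with 3 of 4 genes below control and none past limma's threshold or an unadjusted p of 0.05. Arsa, which degrades the myelin lipid sulphatide, read 9.13, 9.18 and 9.13 in controls and 9.11, 8.99 and 9.13 in POMCDicerKO, overlapping, for a difference of -0.068 with a standard error of 0.067, or -0.025 without POMCDicerKO 2. Ids, the iduronate sulphatase, was at -0.011 with a standard error of 0.061, the dermatan sulphate enzyme Arsb at -0.040 and Sgsh at 0.030. Sgsh acts on heparan sulphate in the same breakdown pathway as Naglu, and so do Idua and Ids. These 3 are not the whole of that pathway. They did not share the Naglu separation of the groups, and whether they differed from Naglu was not tested. Arsk and Arsg, sulphatases of a further list given below, were above control without overlap.

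Lipid hydrolases were at a median of 0.0032, with 2 of 4 genes below control and none past limma's threshold. Smpd1 read 10.43, 10.42 and 10.40 in controls and 10.41, 10.36 and 10.38 in POMCDicerKO. The groups overlapped narrowly, and the difference was -0.037 with a standard error of 0.059, or -0.025 without POMCDicerKO 2. Acid ceramidase, Asah1, was at 0.033 and the acid lipase Lipa at 0.053. Ppt1, which removes palmitate from proteins, was at -0.026 at its brightest probe set. Its probe set 1420016_at had no overlap, at 4.01, 4.06 and 4.04 in controls and 4.17, 4.13 and 4.29 in POMCDicerKO, a difference of 0.16 with a standard error of 0.068 (unadjusted p = 0.0487, limma adjusted p = 1). That probe set is dim, near the low end of the scale, and the remaining 2 with a mean of at least 6 gave 0.076 and 0.084.

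The sphingolipid activator precursor Psap read 12.47, 12.53 and 12.56 in controls and 12.47, 12.45 and 12.50 in POMCDicerKO. Its groups overlapped, with a difference of -0.046 and a standard error of 0.062, or -0.025 without control 3 and -0.074 without control 1. The ganglioside activator Gm2a was at -0.035. Grn, the progranulin precursor, read 10.21, 10.04 and 10.13 in controls and 10.12, 10.25 and 10.26 in POMCDicerKO, for 0.084 with a standard error of 0.075. With single arrays left out it ran from 0.041, without control 2, to 0.13, without POMCDicerKO 1. Its probe set 1448148_at gave -0.088, so its probe sets disagreed in sign, and none passed limma's threshold.

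Membrane proteins had a median of 0.0091, with 2 of 5 genes below control and none past limma's threshold or an unadjusted p of 0.05. Lamp1, the most widely used marker of the lysosomal membrane, read 12.13, 12.22 and 12.09 in controls and 12.19, 12.13 and 12.15 in POMCDicerKO. Its groups overlapped fully, and the difference of 0.0091 with a standard error of 0.065 changed sign when single arrays were dropped. The 95% interval, from -0.14 to 0.16, was among the tighter ones. Lamp2, the partner of Lamp1 that also serves chaperone-mediated autophagy, read 10.24, 10.26 and 10.09 in controls and 10.05, 10.21 and 9.86 in POMCDicerKO at 1434503_s_at. POMCDicerKO 2 lay within the controls, and the difference was -0.16 with a standard error of 0.10. It was -0.24 without POMCDicerKO 2 and -0.067 without POMCDicerKO 3. Its other probe sets gave -0.099, 0.043 and 0.028, a disagreement of up to 0.20. Which Lamp2 transcripts each probe set reads is not stated in the tables used. Scarb2, a sorting receptor of the lysosomal membrane, was at 0.060, Cln3 of juvenile neuronal ceroid lipofuscinosis at 0.057 and the calcium channel Mcoln1 at -0.0021.

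**Figure D3:**
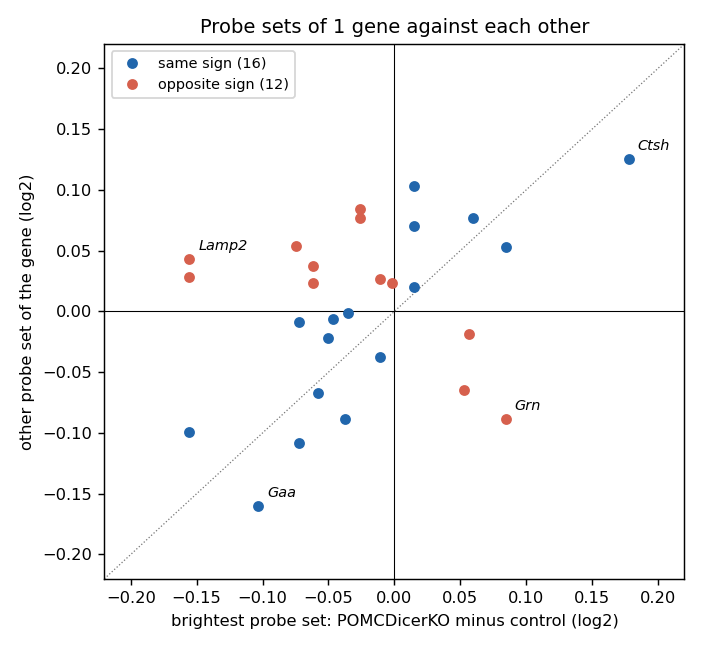
For the 19 lysosomal genes with several probe sets of a mean of at least 6, the difference (POMCDicerKO minus control, log2) at the brightest probe set (x axis) against each other probe set (y axis); the dotted line marks equality. Of 28 other probe sets, 16 had the same sign and 12 the opposite sign, Lamp2 and Grn among the latter.

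Among these probe sets the median gap between the brightest and another of the same gene was 0.056, and the largest, for Lamp2, was 0.20. With dim probe sets included, 24 of 49 had the opposite sign, the median gap was 0.062 and the largest, for Gla, was 0.28. For 10 members 1 probe set is all there is, Naglu and Glb1 among them.

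Tfeb, the transcription factor of the pathway, read 6.65, 6.57 and 6.50 in controls and 6.70, 6.55 and 6.60 in POMCDicerKO. The groups overlapped, with a difference of 0.043 and a standard error of 0.072 (limma adjusted p = 1), or 0.0011 without POMCDicerKO 1. Its activity is set largely by phosphorylation and location, which RNA levels do not measure. Members with CACGTG in their promoter window had a median of -0.068 over 11 genes, 8 below control, and those without it -0.040 over 21 genes, 16 below control. Over all array genes the medians were -0.014 with the motif and -0.010 without. The 4 genes with separate groups, Naglu, Glb1, Gaa and Ctsd, were all among the 11 (36.4%), and 0 of the 21 were. Over all array genes the groups were apart for 6.29% of those with the motif and 6.40% of those without. This split was made after the members' values were known and has no test. Array by array, the median over the 11 genes was -0.018, 0.026 and -0.0029 in controls and -0.039, -0.11 and -0.055 in POMCDicerKO. Without POMCDicerKO replicate 2 it was -0.025, against -0.037 for members without the motif, so the order of the medians turned. Without control 2 the medians were -0.052 with the motif and 0.0022 without it. Of the members with more than 1 copy, Lamp1, with 4, and Mcoln1, with 2, were at 0.0091 and -0.0021. The others with more than 1, Gla, Ctsd, Cln3 and Ctsa, were at -0.25, -0.11, 0.057 and -0.030.

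The rest of the lysosomal pathway was described with 6 further lists. In neither direction did any of their genes pass limma's adjusted threshold. Among 20 other hydrolases and cofactors measured, 12 had means above control, with a median of 0.019. The sulphatase Arsk read 7.08, 7.06 and 7.08 in controls and 7.32, 7.48 and 7.25 in POMCDicerKO, without overlap, for 0.28 with a standard error of 0.076 (unadjusted p = 0.00733, limma adjusted p = 1). Arsg, another sulphatase, was at 0.16, also without overlap. In all, the groups were apart for 4 of the 20, against 6.44% of all genes. The other two, picked after their values were seen, were the protease Ctss at 0.10 and the acid phosphatase Acp2 at -0.069. Among 19 other membrane proteins and transporters the median was 0.0026, with the cation pump Atp13a2 at -0.11 and the cystine transporter Ctns at 0.10. The 17 proton pump subunits had a median of -0.0038, with Atp6v0b at -0.10 and Atp6v1f at -0.064. The 12 genes that sort hydrolases to the lysosome had a median of -0.024, with the adaptors Gga2 and Gga1 at -0.11 and -0.088. The 15 genes of the TFEB family and its mTORC1 regulators had a median of 0.0056, with the GTPase Rraga at 0.14 and the scaffold subunit Lamtor3 at -0.049. The 17 autophagy genes had a median of -0.039, 13 of them below control. The lipid kinase Pik3c3 was at -0.13 without overlap and Gabarap, of the autophagosome membrane, at -0.072. The members' median of -0.036 thus lay within the range of these medians, from -0.039 to 0.019.

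**Figure D4:**
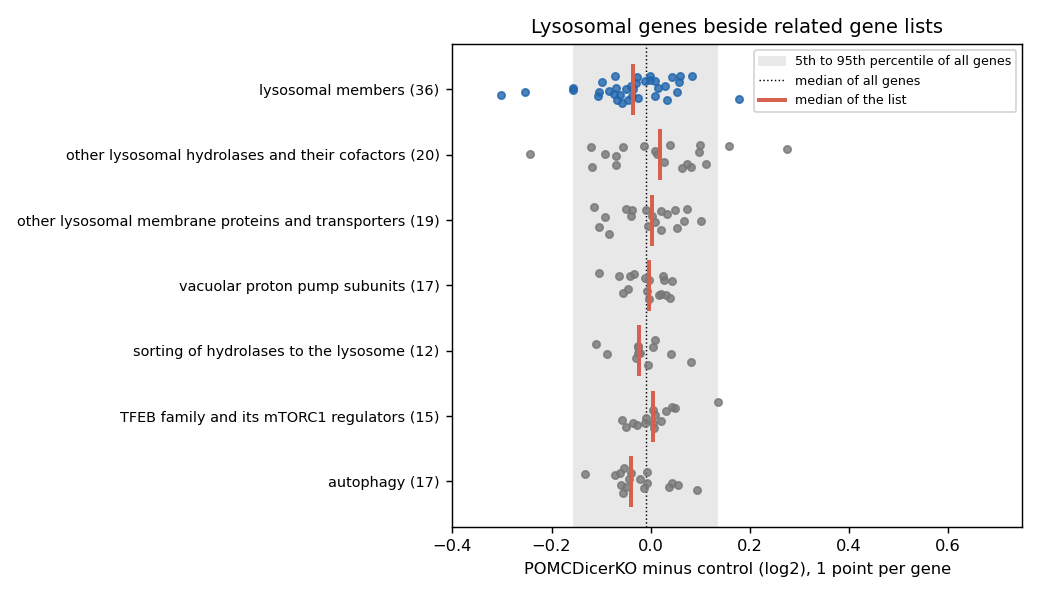
Difference between POMCDicerKO and control (log2) of each gene in the 36 lysosomal members (blue) and in 6 related lists (grey), with the number of genes in parentheses, list medians (red) and the 5th to 95th percentile of all 18193 genes (shaded, from -0.16 to 0.13). The list medians lie between -0.039 and 0.019, and Naglu and Gla are the lysosomal members farthest below the shaded band.

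Array medians of all 7 marker lists ranged more widely than the median over the lysosomal genes, most of all for meninges, myelin and arcuate neurons. Each list holds fewer genes than the 36 members, and a median over fewer genes varies more. Relative to the control mean, the median over the 36 members was -0.018, 0.023 and -0.013 on the control arrays and -0.0096, -0.038 and -0.016 on the POMCDicerKO arrays, so that POMCDicerKO 1 and 3 lay among the controls. Of 10 meningeal and fibroblast markers, 10 had means below control. Their summed linear level ran from 2885 to 15719 in controls and from 1598 to 3322 in POMCDicerKO, with Ogn, Lum, Col1a1 and Slc6a13 below a mean of 6. This sum weighs the brightest gene most, which was Ptgds on every array. Ptgds read 13.63, 13.43 and 10.58 in controls and 10.66, 10.12 and 8.95 in POMCDicerKO. Of 10 myelin markers, each with a mean of at least 6, 10 had means above control, and the sum ran from 32476 to 35394 in controls and from 35228 to 46981 in POMCDicerKO, where array 1 was the highest. Of 12 microglia and macrophage markers, 11 were above control, P2ry12 being the exception. Their sum ran from 3897 to 4525 in controls and from 4552 to 4584 in POMCDicerKO, with Aif1 and Itgam below a mean of 6. It weighs Csf1r most, the brightest of the 12 on every array. Relative to the control mean, the median over the 12 was 0.060, 0.12 and -0.12 in controls and 0.11, 0.10 and 0.079 in POMCDicerKO. By this median the groups overlapped, with control 2 the highest array. Of the 7 arcuate neuron markers, 7 had means below control, and their sum ran from 6308 to 9839 in controls and from 3921 to 7048 in POMCDicerKO, where array 1 was the lowest. Pomc itself read 9.94, 10.87 and 9.76 in controls and 9.35, 9.71 and 9.43 in POMCDicerKO, where control 2 was the highest. The difference was -0.69 (unadjusted p = 0.0334, limma adjusted p = 1), and -0.35 without control 2. The part of these cell types in the levels of the lysosomal genes was not tested. The sum over the 36 members ran from 46158 to 47511 in controls and from 45457 to 46395 in POMCDicerKO. Of 8 astrocyte markers 4 were below control, of 8 neuron markers 3 and of 7 endothelial markers 2. None of the markers passed limma's adjusted threshold.

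**Figure D5:**
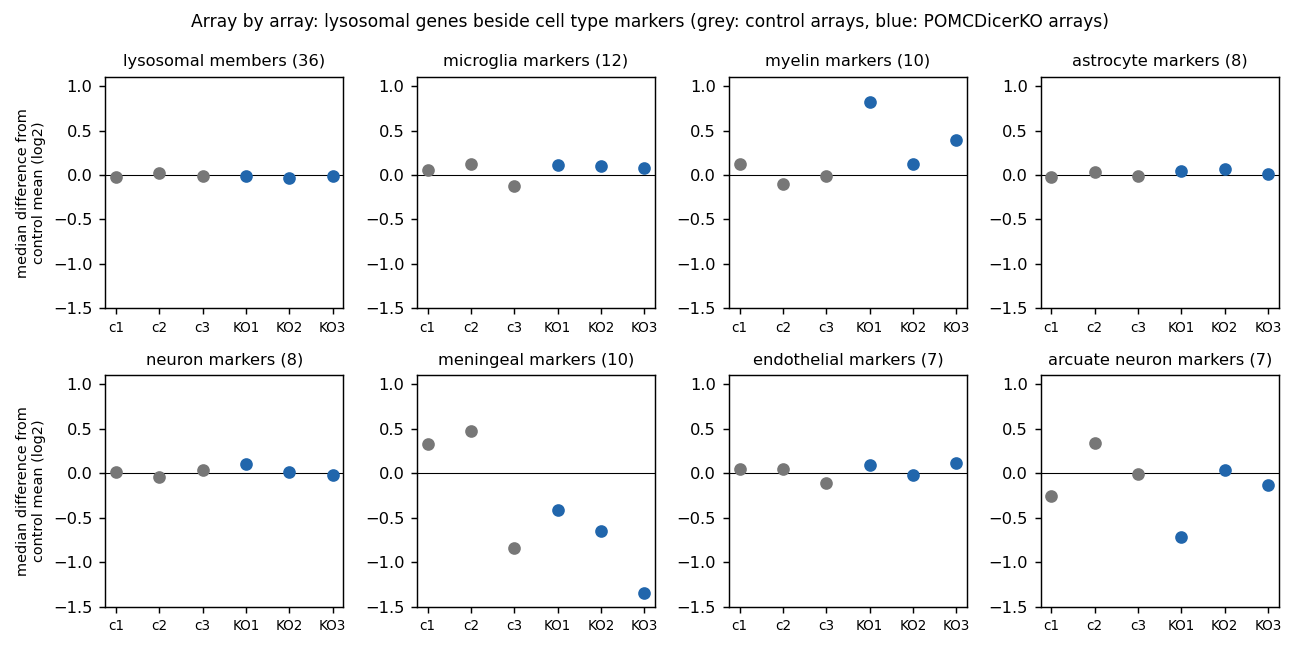
Median difference from the control mean (log2) on each control (grey) and POMCDicerKO (blue) array for the 36 lysosomal genes and 7 lists of cell type markers, all on 1 scale. The median over the 36 lysosomal genes stays between -0.038 and 0.023. Medians over the smaller lists run from -1.35 to 0.48 for meningeal markers and from -0.11 to 0.82 for myelin markers.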

How the data were processed

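The data were 6 Affymetrix Mouse Genome 430 2.0 arrays of arcuate hypothalamus. The authors deposited log2 values for each probe set on each array, made with RMA and the affy package, without versions, per the submitters' processing notes. The method corrects background, quantile-normalises the arrays and summarises probes, so a shift shared by most transcripts would have been removed. Of the probe sets, 45037 were tested and 64 AFFX controls left out. The array annotation gave 1 symbol to 34945, several to 932 and did not list 9160. Current symbols were looked up by Entrez number in RefSeq's GRCm38.p6 table (34741 found). Unused sample columns numbered 0 and identical arrays 0.

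Groups and replicate numbers came from the sample titles. The groups were compared in R 4.3.3 with limma 3.58.1 (lmFit, eBayes). P-values were adjusted by Benjamini-Hochberg across the whole array, with a threshold of 0.05. For single values an exact permutation test, two-sided, was run in SciPy 1.17.1. Means are given with the SD; errors of differences are limma's standard errors. That samples are separate mice is taken from the titles. The number of arrays limits the precision. On simulated data with 200 of 45037 probe sets changed, a log2 change of 0.5 was recovered for 52% (11 false calls), one of 1 for 98% (17 false calls) and one of 2 for 100% (11 false calls). The simulated noise was normal and independent between probe sets, with limma's moderated variances. It held no variation shared by many probe sets, so these shares need not hold for the real arrays. There the meningeal marker Ptgds differed by -2.64 without passing limma's threshold.

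The members and lists were chosen with earlier results of these data known. Values on every array are given for Naglu, Lamp1, Lamp2, Ctsb, Ctsd, Psap, Grn and Tfeb, for member probe sets with separate groups or an unadjusted p under 0.05, and for the smallest p in each role; those of Gla and Ctsh were added after their values were seen. Of each pathway list the 2 genes with the smallest p are named. Lists were described by counts and medians, without a test. Promoter windows came from RefSeq, GRCm38.p6. Overlapping windows of opposite strand agreed as reverse complements in 1487 of 1487 cases. Alternatives were centring, a further quantile normalisation, a mean of at least 6, trended and robust priors, array weights, 1 probe set per gene, an average over each gene's probe sets, a replicate block and leaving out each array. Leaving out controls 1 and 2 together was added after the data were seen. The labels give no batch.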

Additional observations from a re-analysis of the deposited data

How the results depend on the processing

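No member probe set passed limma's adjusted threshold under any of the 15 alternative fits, with between 1 and 5 of them at an unadjusted p under 0.05. Over the whole array the count was 0 in the main fit, 1 with a robust trended prior (Rps9), 0 to 2 with single arrays left out (Grik1 without control 1, Ogn and Slc6a20a without control 3) and 1 without controls 1 and 2 (probe set 1438871_at, unnamed here), all named after their values were seen. The members' median of -0.036 ran from -0.050 to -0.016 with single arrays left out, and was -0.013 without controls 1 and 2 and -0.0011 when each gene's probe sets were averaged. Of the members given on every array, Lamp1, Ctsb and Ctsh turned: Ctsh ran from -0.066 to 0.38, Lamp1 ran from -0.018 to 0.045 and Ctsb from -0.038 to 0.050 with single arrays left out, and Ctsb was -0.021 without controls 1 and 2. The cause was not tested. Under the alternatives 217 values of the members given on every array kept their sign and side of the threshold and 6 turned. Trended and robust priors, the replicate block and the filter on the mean leave each difference as it was. Under these no sign could turn. Nor could it turn with single arrays left out where the groups did not overlap. Part of the 217 is therefore no sign of stability. Over the brightest probe sets of all 36 genes, 18 changed sign with at least 1 single array left out. For the pathway lists, 67 medians moved by less than their spread between arrays and 5 by more. The 67 include those under the block and the filter on the mean, which could not move.

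Same-numbered arrays did not clearly pair: the deviations of the 3 pairs correlated at 0.13, 0.079 and 0.12. Still, 6 of 6 arrays correlated best with their own number, a hint from the data and not the design. These 6 matches are not independent, since the deviations within a group sum to 0 and each pair is counted from both sides. With a replicate block 0 member probe sets and 0 on the whole array passed limma's threshold, and Naglu had an unadjusted p of 0.0049. The members' median of -0.036 could not change under the block, which leaves each difference the same. Dim probe sets have compressed differences, which bears most on the 22 member probe sets below a mean of 6 and on Naglu just above it.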
